A study of Mus musculus with 4 samples.

Results

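The interferon-inducible GTPases examined here are 9 mouse genes, Gbp2, Gbp3, Gbp7, Irgm1, Irgm2, Igtp, Iigp1, Tgtp1 and Tgtp2. They were taken by gene symbol through the Ensembl identifiers of the count table, and all 9 were found among 55812 features. RNA sequencing had been carried out on primary mouse Leydig cells, the androgen-producing cells between the seminiferous tubules, from mice labelled as 6 months old. In 2 samples the cells had received a small interfering RNA against Trps1 (Trps1 siRNA), and in 2 they had received a control siRNA (Negative siRNA). The labels give no other allele or agent that sets the groups apart. They do not tie the samples of a group to separate cultures or mice, so a p-value here covers the variation among 4 libraries, part or all of which may be technical.

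The 9 genes belong to a pair of protein families that cells make in large amounts after interferon gamma and, for most members, type I interferon. Guanylate-binding proteins (Gbp genes) and immunity-related GTPases (Irgm1, Irgm2, Igtp, Iigp1, Tgtp1 and Tgtp2) bind and hydrolyse GTP, and they collect on vacuoles that hold intracellular pathogens. Among the immunity-related GTPases, Irgm1, Irgm2 and Igtp are regulators that sit on the cell's own membranes and hold the effectors inactive there, whereas Iigp1, Tgtp1 and Tgtp2 are effectors that load onto pathogen vacuoles. Their genes are switched on through gamma-activated sites (GAS), which answer to interferon gamma, and through interferon-stimulated response elements (ISRE), which interferon regulatory factors bind.

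The promoters are shown because the members share these elements and because Trps1 encodes a GATA-type zinc finger repressor. RefSeq promoters of 300 bases (GRCm38.p6, 250 before to 50 after the annotated start, on the strand of the gene) were held for 8 of the 9 members, all but Iigp1. The start meant here is the RefSeq start. It lay farthest from the gene start of the positions given below for Irgm2 (58214977 against 58199618) and Tgtp1 (48992246 against 48994172). Both strands were searched for TTCNNNGAA as GAS letters, which read the same on both strands, for GAAANNGAA as the core of an ISRE, and for AGATAA as GATA letters. All 8 members with a promoter had the ISRE core, within 80 bases of the start, against 8.56% of 32851 mouse promoters of that length. These members had 9 promoters, and the second promoter of Gbp3 held no match to any of these motifs. GAS letters stood in 5 of the 8, against 8.30% of all promoters, and GATA letters in 2, against 11.2%. Other spellings of a GATA site were not searched, so a promoter without AGATAA may still hold one. In Irgm2, Igtp, Tgtp1 and Tgtp2 the GAS letters ended 2 bases before the ISRE core. That arrangement occurred in 8 of the 32851 promoters (0.0244%), or 8 genes, of which these members made up 4. GAS letters and an ISRE core at any spacing occurred in 351 promoters (1.07%). The 2-base gap is the one these members hold, so its share is a description and not a test. The Igtp and Irgm2 promoters matched at 244 of 265 aligned bases (92.1%), and those of Tgtp1 and Tgtp2 at 164 of 187 (87.7%). The sequences below run 5′ to 3′, with GAS and ISRE core letters in capitals; Gbp2 is shown as a member with an ISRE core and no GAS letters.
Igtp, chr11:58199306-58199605, plus strand: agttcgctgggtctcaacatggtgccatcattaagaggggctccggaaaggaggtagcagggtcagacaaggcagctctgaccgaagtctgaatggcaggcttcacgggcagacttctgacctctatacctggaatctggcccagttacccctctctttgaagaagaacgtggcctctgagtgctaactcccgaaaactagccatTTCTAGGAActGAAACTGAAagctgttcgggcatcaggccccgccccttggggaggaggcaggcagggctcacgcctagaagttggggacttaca
Irgm2, chr11:58214727-58215026, plus strand: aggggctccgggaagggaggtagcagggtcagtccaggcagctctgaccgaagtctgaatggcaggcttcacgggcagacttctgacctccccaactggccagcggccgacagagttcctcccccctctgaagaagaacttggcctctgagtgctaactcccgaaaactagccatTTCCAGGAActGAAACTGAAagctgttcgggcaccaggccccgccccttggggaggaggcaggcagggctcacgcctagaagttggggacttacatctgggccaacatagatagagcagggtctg
Tgtp1, chr11:48992197-48992496, minus strand: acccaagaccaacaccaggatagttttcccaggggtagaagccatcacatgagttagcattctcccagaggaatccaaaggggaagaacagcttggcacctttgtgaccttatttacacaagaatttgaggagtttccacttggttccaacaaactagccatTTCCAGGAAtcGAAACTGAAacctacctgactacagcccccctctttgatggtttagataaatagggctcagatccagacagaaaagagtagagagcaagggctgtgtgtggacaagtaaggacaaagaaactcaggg
Tgtp2, chr11:49064163-49064462, minus strand: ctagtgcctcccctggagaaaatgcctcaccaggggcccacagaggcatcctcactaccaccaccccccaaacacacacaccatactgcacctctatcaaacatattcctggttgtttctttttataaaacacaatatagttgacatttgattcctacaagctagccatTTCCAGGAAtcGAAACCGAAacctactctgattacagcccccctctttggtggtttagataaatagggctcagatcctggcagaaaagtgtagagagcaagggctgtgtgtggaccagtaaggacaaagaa
Gbp2, chr3:142620413-142620712, plus strand: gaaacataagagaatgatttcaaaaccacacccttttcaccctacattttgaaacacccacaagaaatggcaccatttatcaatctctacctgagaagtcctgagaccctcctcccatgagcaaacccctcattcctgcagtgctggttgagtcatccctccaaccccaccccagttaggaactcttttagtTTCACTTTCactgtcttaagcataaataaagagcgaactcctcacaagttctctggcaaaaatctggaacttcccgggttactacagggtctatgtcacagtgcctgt

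The first base of the GAS letters lay 45 bases before the start in Igtp, 75 in Irgm2, 88 in Tgtp1 and 81 in Tgtp2. In Gbp7 GAS letters began at 106 and 87 bases before the start, and its ISRE core at 52 bases, without the 2-base gap. Gbp3, in its first promoter, and Irgm1 each held 2 ISRE cores that overlap each other and no GAS letters. The GATA letters of Tgtp1 and Tgtp2 began 33 and 25 bases before the start. A match describes letters only and shows no binding.

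**Figure D1:**
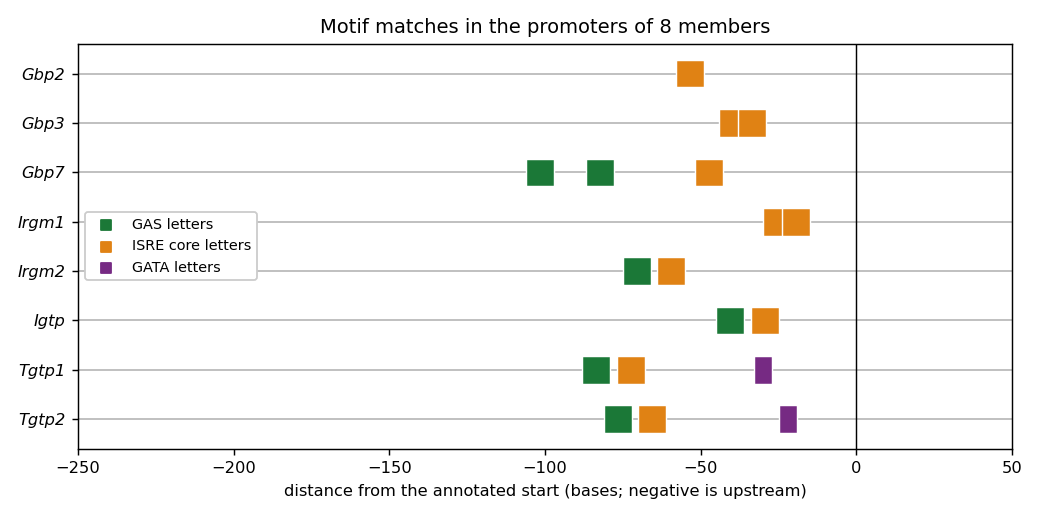
Position of each motif match in the first RefSeq promoter of 8 members, from 250 bases before to 50 after the annotated start (x axis, bases); boxes are GAS letters (green), ISRE core letters (orange) and GATA letters (purple). The GAS and ISRE boxes stand side by side, 2 bases apart, in Irgm2, Igtp, Tgtp1 and Tgtp2.

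The libraries held 17844125 and 21597187 counted reads with Trps1 siRNA and 20116799 and 25852898 with Negative siRNA. Trps1, the targeted gene, had 23.5 and 30.1 CPM (counts scaled to a common, TMM-adjusted library size) with Trps1 siRNA, against 38.1 and 42.2 CPM with Negative siRNA (log2 fold change -0.58 ± 0.10, standard error; edgeR adjusted p = 0.000351). The 8 Leydig markers were present in every sample, between 15.2 and 3655 CPM. Markers of macrophages and of other testis cells were present too, as described with the results they touch. In contrast, 10 of 11 lymphocyte markers were too low to be tested, and no lymphocyte marker exceeded 2.64 CPM.

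With Trps1 siRNA, 5 of the 9 GTPase genes fell, namely Gbp2, Igtp, Iigp1, Tgtp1 and Tgtp2, and 4 did not pass the test, Gbp3, Gbp7, Irgm1 and Irgm2. All 9 passed the expression filter, whose limit of about 0.479 CPM lay below each member's level in every sample. Fold changes were tested with edgeR's quasi-likelihood test over 14701 genes, and a gene was called at a Benjamini-Hochberg adjusted p under 0.05. Over all genes tested 6.00% were called lower and 5.24% higher. In 6 of the 9 members both Trps1 siRNA samples lay below both Negative siRNA samples, against 26.1% of all genes tested. The median log2 fold change of the 9 was -0.25, and that of all genes tested 0.002. The summed level of the 9 genes was 547 and 626 CPM with Trps1 siRNA, against 654 and 704 CPM with Negative siRNA. The number of members called lower was 4 without sample 1 of Trps1 siRNA or without either Negative siRNA sample, 6 without sample 2 of Trps1 siRNA, and 3 with DESeq2.

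**Figure D2:**
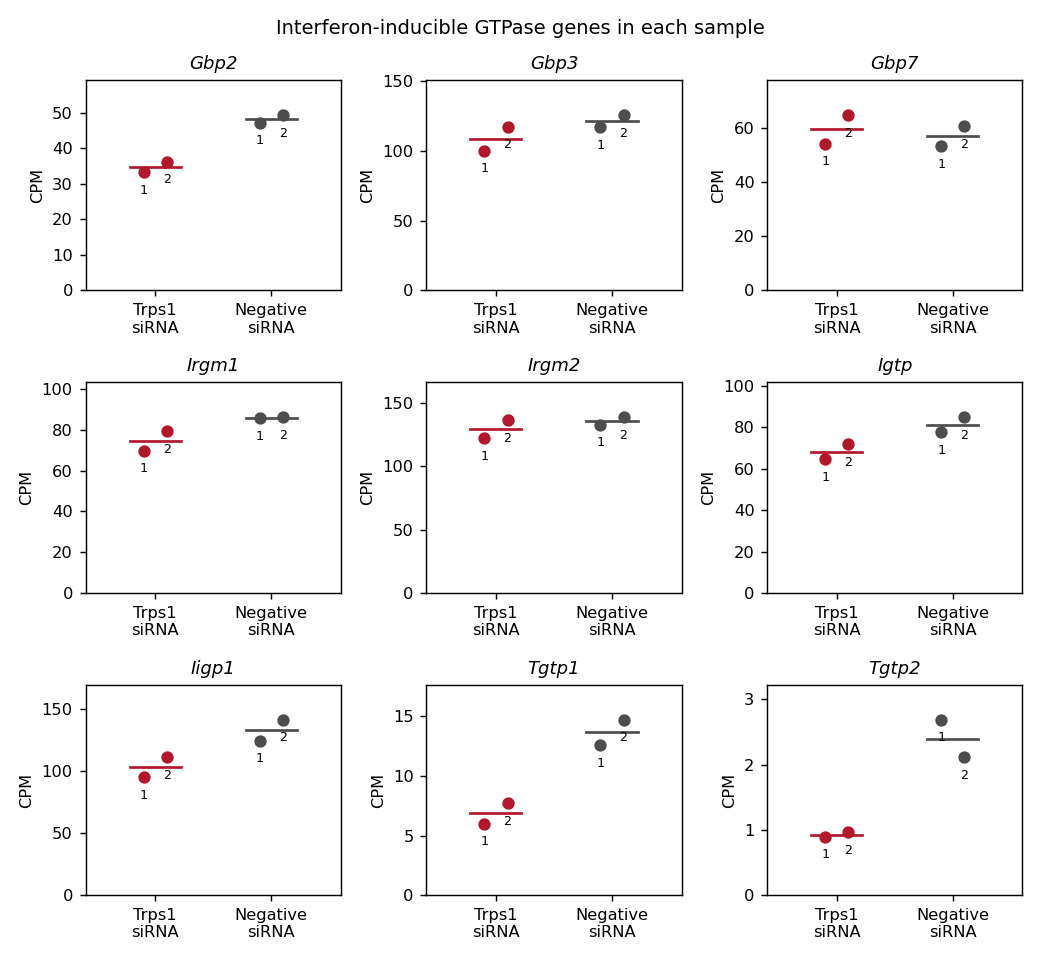
CPM of the 9 GTPase genes (y axis, from 0) in each sample, with Trps1 siRNA in red and Negative siRNA in grey; points are samples, numbered as in the labels, and lines are group means of 2. Gbp2, Irgm1, Igtp, Iigp1, Tgtp1 and Tgtp2 have both red points below both grey points, and Gbp3, Gbp7 and Irgm2 overlap.

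The 3 effector genes among the members, Iigp1, Tgtp1 and Tgtp2, were called lower, with DESeq2 2 of the 3. Tgtp1 (T-cell-specific GTPase 1, ENSMUSG00000078922, chromosome 11, 48985327 to 48994172, minus strand, GRCm38) had 107 and 168 reads, or 5.99 and 7.73 CPM, with Trps1 siRNA, against 253 and 376 reads, or 12.6 and 14.7 CPM, with Negative siRNA. The groups did not overlap, and the fitted level was 50.5% of that with Negative siRNA (log2 fold change -0.99 ± 0.15, edgeR adjusted p = 6.17e-05). Tgtp2 (ENSMUSG00000078921, chromosome 11, 49057194 to 49064206, minus strand), its neighbour, had 16 and 21 reads with Trps1 siRNA, against 54 and 54 with Negative siRNA. That is 0.896 and 0.966 CPM with Trps1 siRNA and 2.69 and 2.11 CPM with Negative siRNA, again without overlap (log2 fold change -1.35 ± 0.34, edgeR adjusted p = 0.0102). Its edgeR adjusted p was 0.0710 when sample 2 of Trps1 siRNA was left out and 0.0732 when sample 1 of Negative siRNA was, so the call was lost in both cases, and DESeq2 gave it no adjusted p.

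Tgtp1 and Tgtp2 are near-identical copies, so how reads were divided between them is in doubt. Their coding sequences, of 1245 bases each, are the same at 1241 bases. Of the 100-base windows in the Tgtp1 transcript 83.3% also occur in another gene's transcript, nearly all in Tgtp2, and of those in the Tgtp2 transcript 80.4% do. Tgtp1 further shares 223 exon bases on its own strand with Gm12185, which had 2 and 7 reads with Trps1 siRNA and 4 and 5 with Negative siRNA. With the reads of both copies added before the fit, the pair had 6.89 and 8.70 CPM with Trps1 siRNA, against 15.3 and 16.8 CPM with Negative siRNA. The summed pair fell by 1.03 on the log2 scale (edgeR adjusted p = 1.17e-05). The fall of the pair thus does not turn on how reads were split between the copies, but the change of each copy may. With the copies summed, 4 of 8 members were called lower.

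Iigp1, an effector that coats the vacuole of Toxoplasma in mouse cells, lies apart from the other members (ENSMUSG00000054072, chromosome 18, 60376027 to 60392634, plus strand). Iigp1 had 95.3 and 111 CPM with Trps1 siRNA, against 124 and 141 CPM with Negative siRNA. Both Trps1 siRNA samples were lower, and the log2 fold change was -0.36 ± 0.07 (edgeR adjusted p = 0.00189). No 100-base window of its transcript occurs in another annotated gene. It was called in every alternative fit run, with adjusted p-values up to 0.0229.

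Of the 3 regulators of this family, 1 fell. Igtp, also known as Irgm3 and found on the endoplasmic reticulum and lipid droplets (ENSMUSG00000078853, chromosome 11, 58199556 to 58207591, plus strand), had 64.5 and 72.0 CPM with Trps1 siRNA, against 77.8 and 84.9 CPM with Negative siRNA. The groups did not overlap, and the fitted level of Igtp was 83.9% of that with Negative siRNA (log2 fold change -0.25 ± 0.07, edgeR adjusted p = 0.0189). This call was lost with DESeq2 (adjusted p = 0.0779), and in edgeR without sample 1 of Trps1 siRNA (adjusted p = 0.154) or sample 2 of Negative siRNA (adjusted p = 0.230).

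Irgm1, needed in mice for resistance to mycobacteria and for autophagy (ENSMUSG00000046879, chromosome 11, 48861968 to 48871683, minus), had 69.8 and 79.5 CPM with Trps1 siRNA, against 85.8 and 86.2 CPM with Negative siRNA. Both Trps1 siRNA samples lay lower, but the log2 fold change of -0.20 ± 0.07 just missed the threshold (edgeR adjusted p = 0.0553). Irgm1 was called in 4 of 12 alternative fits. Among these were no filter on low counts (edgeR adjusted p = 0.0213) and a mean of 5 CPM or more required (edgeR adjusted p = 0.0419). It was not called with DESeq2 (adjusted p = 0.185) or limma voom (adjusted p = 0.0806). The estimate was -0.30 without sample 2 of Trps1 siRNA and -0.11 without sample 1. Irgm2, a regulator at the Golgi (ENSMUSG00000069874, chromosome 11, 58199618 to 58222782, plus strand), had 122 and 136 CPM with Trps1 siRNA, against 133 and 139 CPM with Negative siRNA. These values overlapped, with a log2 fold change of -0.07 ± 0.06 that did not pass the test (edgeR adjusted p = 0.533). Irgm2 is annotated from within Igtp onwards, and the 2 genes share 162 exon bases on the same strand, which is 8.01% of the exons of Igtp and 4.39% of those of Irgm2. Whether Igtp and Irgm2, whose promoters are printed above, differed in their response was not tested.

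Of the 3 guanylate-binding proteins, 1 fell. Gbp2, a lipid-anchored member that is recruited to Toxoplasma vacuoles (ENSMUSG00000028270, chromosome 3, 142620602 to 142638008, plus strand), had 33.2 and 36.2 CPM with Trps1 siRNA, against 47.2 and 49.4 CPM with Negative siRNA. The gap between the groups was wider than the spread within either, and its fitted level was 71.9% of that with Negative siRNA (log2 fold change -0.48 ± 0.08, edgeR adjusted p = 0.000185). It, too, was called in every alternative fit run, with adjusted p-values up to 0.00400. No window of 100 bases of its transcript occurs in another gene.

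Gbp3 (ENSMUSG00000028268, chromosome 3, 142560026 to 142573209, plus strand) had 100.2 and 117 CPM with Trps1 siRNA and 117 and 126 CPM with Negative siRNA. The higher Trps1 siRNA sample was level with the lower Negative siRNA sample, and the log2 fold change of -0.16 ± 0.07 did not pass the test (edgeR adjusted p = 0.147). The estimate was -0.28 without sample 2 of Trps1 siRNA, where Gbp3 was called (edgeR adjusted p = 0.0203), and -0.05 without sample 1 (edgeR adjusted p = 0.712). Gbp7, which lies beside Gbp3 (ENSMUSG00000040253, chromosome 3, 142530342 to 142550149, plus strand), had 54.2 and 64.7 CPM with Trps1 siRNA, against 53.2 and 60.6 CPM with Negative siRNA. It was the single member with a positive estimate, 0.06 ± 0.08 on the log2 scale (edgeR adjusted p = 0.720). Its sign turned when sample 2 of Trps1 siRNA (-0.08) or sample 1 of Negative siRNA (-0.03) was left out. Gbp3 and Gbp7 have the most similar coding sequences of the 3 Gbp members, 76.1% identical over the longer one, and share few exact windows (0.929% of those of Gbp3). A pseudogene, Gm43802, covers 11.3% of the exon bases of Gbp7 on the same strand, and no read was counted for it in any sample.

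**Figure D3:**
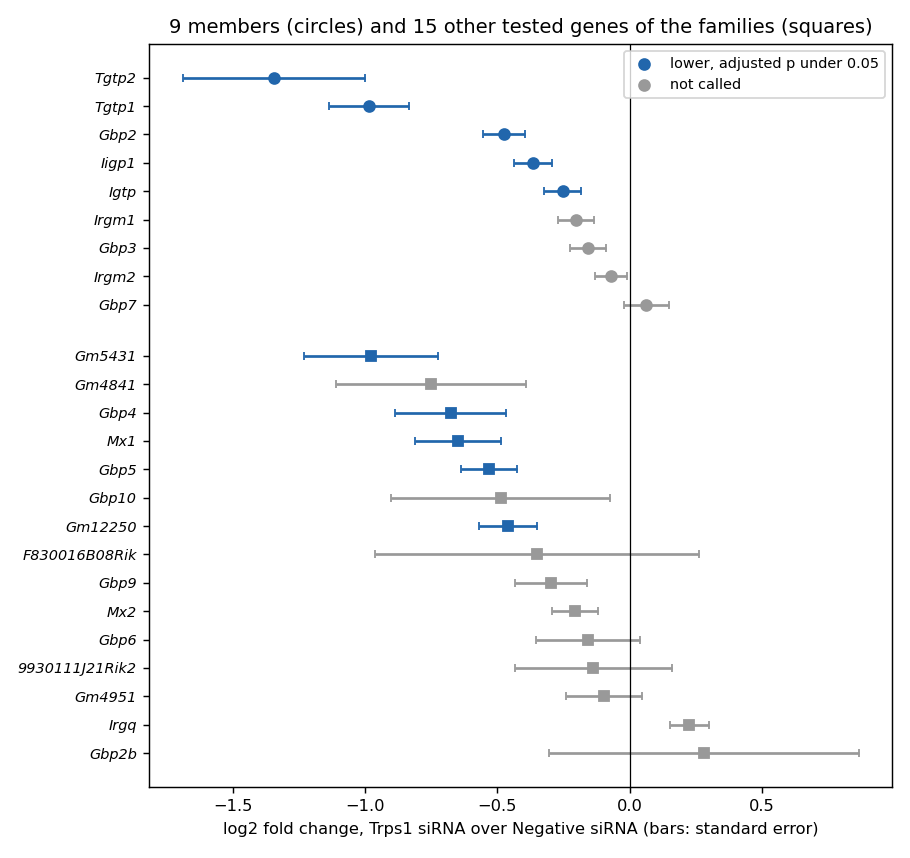
Log2 fold change (x axis, Trps1 siRNA over Negative siRNA) with its standard error for the 9 members (circles) and 15 other tested genes of the same families (squares); blue marks genes called lower and grey genes not called. The members range from -1.35 for Tgtp2 to 0.06 for Gbp7.

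Levels can be set beside each other only per length, and are given as CPM per kilobase of merged exons. Igtp averaged 33.8 ± 2.62 with Trps1 siRNA and 40.2 ± 2.48 with Negative siRNA (SD, n = 2 each, as for all levels here). Gbp3 averaged 33.3 ± 3.69 with Trps1 siRNA and 37.1 ± 1.94 with Negative siRNA, and Irgm2 averaged 35.1 ± 2.68 with Trps1 siRNA and 36.8 ± 1.12 with Negative siRNA. By this length these 3 genes were the highest in both groups, and they did not differ from each other beyond their spread with Trps1 siRNA. Next came Iigp1 (17.7 ± 1.89 with Trps1 siRNA, 22.8 ± 2.04 with Negative siRNA), Gbp2 (13.8 ± 0.841 with Trps1 siRNA, 19.2 ± 0.621 with Negative siRNA), Irgm1 (12.9 ± 1.18 with Trps1 siRNA, 14.8 ± 0.0448 with Negative siRNA) and Gbp7 (10.6 ± 1.33 with Trps1 siRNA, 10.1 ± 0.932 with Negative siRNA). With Trps1 siRNA, Gbp2 and Irgm1 were within their spread of each other. Tgtp1 was counted far lower, at 2.14 ± 0.383 with Trps1 siRNA and 4.25 ± 0.464 with Negative siRNA. Tgtp2 was counted lowest, at 0.317 ± 0.0168 with Trps1 siRNA and 0.816 ± 0.139 with Negative siRNA, with the doubt about these copies noted above. Most of either transcript recurs in the other copy, and how reads with several positions were handled is not known. If such reads were left out, both copies were undercounted, so their rank beside the other members is in doubt. The order depends on the length used, at the top as well. Per kilobase of the transcript with the longest coding sequence, Irgm1 stood at 30.9 and 35.2 in the Trps1 siRNA samples and 37.99 and 38.1 in the Negative siRNA samples. Iigp1 then stood at 30.5 and 35.5 in the Trps1 siRNA samples and 39.9 and 45.3 in the Negative siRNA samples, so both overlapped Igtp in the Trps1 siRNA group. By that length the mean level of Iigp1 with Negative siRNA, 42.6, came after Gbp3 at 45.2 and before Igtp at 40.2 and Irgm2 at 38.5, with a spread of 3.81 (SD) for Iigp1.

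Besides these 9, 21 other genes of the same families and of the related Mx GTPases were listed, and 15 passed the expression filter. Among the 15 tested, 5 were called lower and 10 were not called, and their median log2 fold change was -0.35. Gbp5, which promotes inflammasome activation in mouse macrophages, had 16.7 and 20.1 CPM with Trps1 siRNA, against 26.6 and 26.8 CPM with Negative siRNA (log2 fold change -0.53 ± 0.11, edgeR adjusted p = 0.00116). Gm12250, the gene of Irgb10, an effector that attacks bacterial membranes, had 17.4 and 18.4 CPM with Trps1 siRNA, against 22.4 and 26.8 CPM with Negative siRNA (log2 fold change -0.46 ± 0.11). Neither gene overlapped between the groups. The other genes that fell were Gbp4, with 3.19 and 3.63 CPM with Trps1 siRNA against 4.68 and 6.21 CPM with Negative siRNA, the antiviral GTPase gene Mx1, with 5.77 and 5.38 CPM with Trps1 siRNA against 8.36 and 9.06 CPM with Negative siRNA, and Gm5431, with 1.96 and 1.89 CPM with Trps1 siRNA against 3.88 and 3.71 CPM with Negative siRNA. For Mx2, the relative of Mx1, the estimate of -0.21 ± 0.09 was not called (edgeR adjusted p = 0.132). Irgq had 52.1 and 50.4 CPM with Trps1 siRNA against 43.8 and 43.8 CPM with Negative siRNA, an estimate of 0.23 ± 0.08 that also missed the threshold (edgeR adjusted p = 0.0519). The count of 5 was 2 without sample 2 of Negative siRNA, 3 without sample 2 of Trps1 siRNA and 2 with DESeq2.

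The regulators upstream of these genes were examined as a list of 28 interferon signalling genes, of which 25 were tested. Of these 6 fell and 19 were not called, with a median log2 fold change of -0.05. Among the genes that fell were Irf7 and Irf5, transcription factors of the interferon response, Usp18, an inhibitor of type I interferon signalling, and Socs3 and Ptpn6, which dampen cytokine receptors, with log2 fold changes from -0.46 for Ptpn6 to -0.25 for Socs3. The receptor genes Ifngr2 (-0.12 ± 0.06), Ifnar1 (0.06 ± 0.07) and Ifnar2 (0.01 ± 0.06) were not called. Nor were the kinase gene Jak1 (0.07 ± 0.06) or the transcription factor genes Stat2 (0.02 ± 0.06), Stat3 (0.07 ± 0.06), Irf9 (-0.08 ± 0.06) and Irf8 (0.07 ± 0.06). Of the interferon genes themselves only Ifng and Ifnb1 were in the list, and their reads were scarce. Ifng had 0 and 0 reads with Trps1 siRNA and 1 and 0 with Negative siRNA, and Ifnb1 had 4 and 3 reads with Trps1 siRNA and 3 and 3 with Negative siRNA.

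Among 37 tested interferon-stimulated antiviral genes outside the GTPase families, 18 fell, 1 rose and 18 were not called, with a median log2 fold change of -0.21. Ddx58, the gene of the RNA sensor RIG-I, had 121 and 134 CPM with Trps1 siRNA, against 207 and 221 CPM with Negative siRNA (log2 fold change -0.75 ± 0.06, edgeR adjusted p = 5.15e-09). Cxcl10, a chemokine that draws T cells, had 19.2 and 18.5 CPM with Trps1 siRNA, against 39.05 and 32.3 CPM with Negative siRNA, the lowest fold change of the list (-0.92 ± 0.10). The RNA-binding Ifit1, Ifit2, Ifit3 and Ifit3b fell by 0.51 to 0.72 on the log2 scale, and the oligoadenylate synthetase family genes Oas1a, Oas1g, Oas3, Oasl1 and Oasl2 by 0.21 to 0.55. The remaining genes that fell were Zbp1, Ifi35, Isg15, Ifitm3, Cmpk2, Xaf1 and Samhd1, with log2 fold changes from -0.39 to -0.20. Ifi27, the gene that rose, had 440.5 and 381 CPM with Trps1 siRNA, against 339 and 314 CPM with Negative siRNA (log2 fold change 0.33 ± 0.07). Bst2, Trim25 and Eif2ak2, also of high level, were not called (-0.12 ± 0.06, -0.03 ± 0.07 and 0.06 ± 0.07). Without sample 2 of Negative siRNA 9 genes of the list were called lower. A last list held 28 genes whose products act with the GTPases, namely the ubiquitin-like conjugation system that guides them to vacuoles, prenyl transferases and inflammasome proteins. Of these 2 were called lower and 26 were not called, a share near the 6.00% of all genes tested that were called lower, and the median log2 fold change was -0.04. Gabarap, a ubiquitin-like protein of autophagy, had 317 and 301 CPM with Trps1 siRNA against 346 and 361 CPM with Negative siRNA (log2 fold change -0.19 ± 0.06, edgeR adjusted p = 0.0344). Ube2l6, an ISG15-conjugating enzyme, had 106 and 115 CPM with Trps1 siRNA against 125 and 129.5 CPM with Negative siRNA (-0.20 ± 0.06, edgeR adjusted p = 0.0249). Genes not called included Atg3 (0.003 ± 0.07), which conjugates LC3, the LC3 genes Map1lc3a (-0.09 ± 0.06) and Map1lc3b (-0.15 ± 0.06), and the adaptor gene Sqstm1 (0.17 ± 0.06). The balance of calls turned with the setting, at 1 lower and 2 higher with library totals alone and 1 lower and 1 higher with DESeq2. No gene of the list was called when either Negative siRNA sample was left out, and without sample 1 of Trps1 siRNA 4 genes of the list were called, 2 lower and 2 higher.

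**Figure D4:**
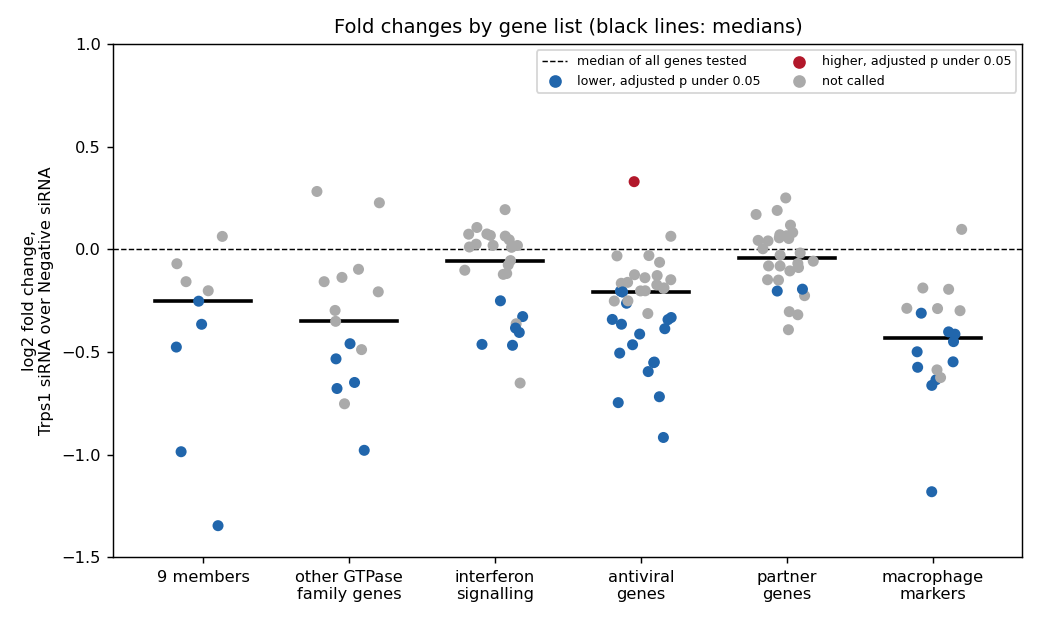
Log2 fold change (y axis, Trps1 siRNA over Negative siRNA) of each tested gene by list, with the list's median as a black line and the median of all genes tested as a dashed line; blue marks genes called lower, red higher and grey not called. The medians are -0.25 for the 9 members, -0.35 for other GTPase family genes, -0.05 for interferon signalling, -0.21 for antiviral genes, -0.04 for partner genes and -0.43 for macrophage markers.

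Macrophages also express these GTPases, and macrophage markers were lower with Trps1 siRNA. Of 18 macrophage markers 10 fell and 8 were not called, with a median log2 fold change of -0.43, and without sample 1 of Trps1 siRNA 16 fell. Those with the smallest p were Fcgr1, Aif1, Adgre1, Cd68, Ms4a7 and Tyrobp, with log2 fold changes from -1.18 for Aif1 to -0.45 for Cd68. Their summed level was 2769 and 2196 CPM with Trps1 siRNA, against 3269 and 3196 CPM with Negative siRNA, and none of the 18 was at 0 in any sample. Within the Trps1 siRNA group, all 9 GTPases were higher in sample 2 than in sample 1, and all 18 macrophage markers were lower there. Of all genes tested, 48.8% were higher in that sample 2. Within the Negative siRNA group, 8 of 9 GTPases and 12 of 18 macrophage markers were higher in sample 2, against 49.9% of all genes tested. The macrophage sum was slightly lower there, with Lyz2 at 1438 CPM in sample 1 and 1287 CPM in sample 2. In bulk RNA, fewer cells of a type and less RNA per cell cannot be told apart, and the part of macrophages in the fall of the GTPase genes was not tested. The 8 Leydig markers summed to 6035 and 6477 CPM with Trps1 siRNA, against 4054 and 4337 CPM with Negative siRNA. Of these 6 were called higher, and 2 were not called, Star (-0.09 ± 0.06) and Insl3 (0.02 ± 0.06). Endothelial cells, another type that expresses Gbp genes, had 11 tested markers between 0.781 and 25.0 CPM, with a median log2 fold change of 0.08. Peritubular myoid and smooth muscle markers reached 71.0 CPM, and of 5 tested 2 were called lower and 1 higher. Sertoli markers reached 3026 CPM, and of 4 tested 1 was called higher. Of 2 tested germ cell markers 1 was called higher. Over all genes tested 6.00% were called lower and 5.24% higher.

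**Figure D5:**
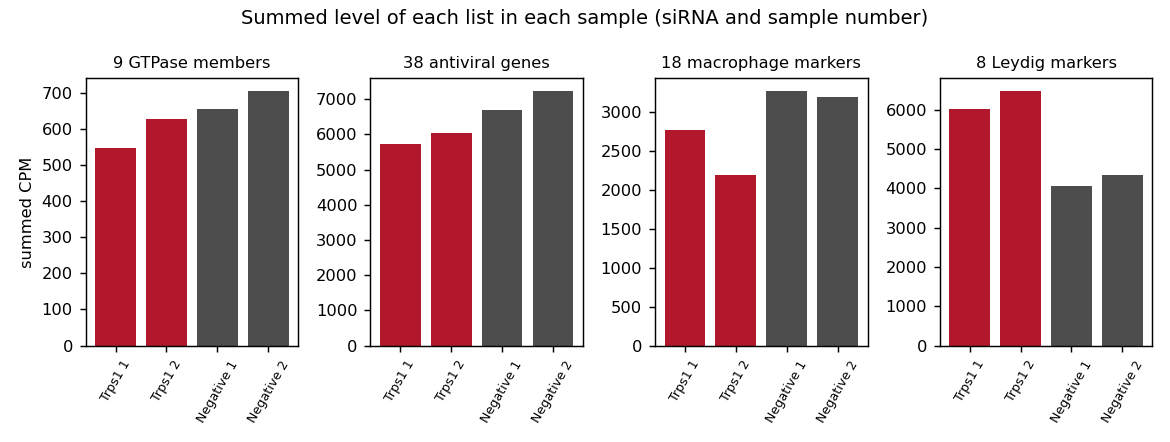
Summed CPM (y axis, from 0) of the 9 GTPase members, 38 antiviral genes, 18 macrophage markers and 8 Leydig markers in each sample, with Trps1 siRNA in red and Negative siRNA in grey. The GTPase sum is 547 and 626 with Trps1 siRNA and 654 and 704 with Negative siRNA. With Trps1 siRNA the sample with the higher GTPase sum has the lower macrophage sum, and the part of macrophages in the GTPase levels was not tested. With Negative siRNA the macrophage sums are close, at 3269 and 3196. Lyz2 had 1438 and 1287 CPM there, and 12 of 18 macrophage markers were higher in sample 2.

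The authors' deposited table of 780 genes lists 2 of the members. In the authors' deposited table Gbp2 has a log2 fold change of -0.48 with an adjusted p of 0.000370, and Tgtp1 has -0.99 with 6.72e-05. For a comparison of profiles, the members and genes with clone, identifier or pseudogene names were set aside. Over the 4 samples, the remaining genes whose centred log2 CPM lay nearest to the members' mean profile were Naa30, Magt1, Ppig, Ccn2, Thbs1 and Bfar. Their root mean square distance to that profile was 0.0193 for Naa30, which encodes a subunit of an N-terminal acetyltransferase, to 0.0300 for Bfar, a membrane-bound regulator of apoptosis. With 4 samples in 2 groups many genes come close to any such profile, so this is a description of these libraries.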

How the data were processed

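Total RNA of 4 samples was sequenced, and the authors deposited raw read counts per gene, made with HISAT2 and featureCounts on GRCm38 (mm10) per the submitters' processing notes. Versions, strand setting, read length and the handling of reads with several positions were not given in the sources used here. A table of 780 genes that the authors deposited holds a mean normalised signal per group, a log2 fold change and p-values; its test was not given in the sources used here. Groups follow the sample titles. Symbols, positions and transcripts came from GENCODE M21 (GRCm38), matched by Ensembl identifier, and promoters from RefSeq (GRCm38.p6).

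Counts were tested with edgeR 4.0.16 (R 4.3.3): TMM, filterByExpr with a minimum count of 10, robust glmQLFit and glmQLFTest, group only, Trps1 siRNA minus Negative siRNA, 2 residual degrees of freedom, Benjamini-Hochberg over 14701 genes. A standard error is the log2 fold change over the square root of F. The chi-square per gene between replicates averaged 4.61 for Trps1 siRNA and 7.60 for Negative siRNA, above sampling noise. Total counts of 17844125 to 25852898 limit precision for genes with few reads. The fit was tested on simulated data. Alternatives were RLE factors, library totals, no filter, a filter at a mean of 5 CPM, limma voom (3.58.1), DESeq2 1.42.0, glmQLFit that is not robust, a block for the replicate number, leaving out each sample, and the Tgtp copies summed; transcript length in place of exon length was added after seeing the data.

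The members and lists were chosen with earlier results of these data known. Named genes were all members and Trps1, called genes of each list with up to 8 further members of high level, up to 6 called macrophage markers, and the 6 nearest profiles with a mean of at least 5 CPM. The nearest profiles were sought outside the members and outside genes with clone, identifier or pseudogene names. Genes outside this rule (Gm12185, Gm43802, Olfr56, Adar, Ifi47, Ifng, Ifnb1, Lyz2, Star and Insl3) were named after their values were seen. A gene of the signalling list is counted but not reported here.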

Additional observations from a re-analysis of the deposited data

How the results depend on the processing

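Tgtp1, Gbp2 and Iigp1 kept their direction and their call under every alternative run. With DESeq2, 991 genes were called, of which 3 were members and 2 other GTPase family genes. Without robust estimation 1 partner gene was called. With a sample left out, the number of genes called ranged from 871 to 1675, of members from 4 to 6, of other GTPase family genes from 2 to 5, of interferon signalling genes from 5 to 6, of antiviral genes from 10 to 23, of partner genes from 0 to 4 and of macrophage markers from 9 to 16. The log2 fold change of Gbp7 then lay between -0.077 and 0.18 (-0.027 without sample 1 of Negative siRNA) and that of Irgm2 between -0.15 and 0.0033, so both changed sign; the cause was not tested. The group titles share the numbers 1 and 2, which the labels do not tie to a shared animal, batch or day. Deviations of same-numbered samples correlated at 0.0165 across all genes, and with 2 pairs the numbers were not taken to pair the samples, although most GTPase and antiviral genes were higher in sample 2 of both groups. With the replicate number as a block, 2285 genes were called, including 7 members (Gbp3 and Irgm1 besides the 5) and 6 partner genes. Tgtp2, with 16 to 54 reads a sample, is the member whose estimate depth limits most, and it fell below the filter of 5 CPM.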

Other observations

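Ifi47, another immunity-related GTPase gene, had 0 and 1 reads with Trps1 siRNA and 1 and 0 with Negative siRNA, too few to be tested. The annotation places Olfr56 on the same strand, sharing 111 exon bases (4.49% of the exons of Ifi47), and Olfr56 had 16 and 20 reads with Trps1 siRNA and 6 and 22 with Negative siRNA.

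In both groups sample 2 tended to hold more GTPase reads than sample 1. All 9 members were higher in sample 2 with Trps1 siRNA and 8 of 9 with Negative siRNA, where Tgtp2 was the exception, against 48.8% and 49.9% of all genes tested. Of the 37 antiviral genes 28 and 33 were higher in sample 2 of the Trps1 siRNA and Negative siRNA groups.

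Among the other genes whose promoter held GAS letters 2 bases before an ISRE core was Adar, an RNA-editing enzyme gene with an interferon-inducible start. Adar had 122 and 134 CPM with Trps1 siRNA and 127 and 129 CPM with Negative siRNA, a log2 fold change of -0.004 ± 0.06 (edgeR adjusted p = 0.980).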
